A study of Homo sapiens with 21 samples.

Results

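The 10 genes described here encode chaperones of 4 kinds and their regulators: the cytosolic HSP90 proteins (HSP90AA1, HSP90AB1), the mitochondrial chaperonin and its lid (HSPD1, HSPE1), J-domain cochaperones and the HSP70 cofactor BAG3 (DNAJB1, DNAJA1, DNAJB4, BAG3), and small heat shock proteins (HSPB1, CRYAB). They were chosen by gene symbol from the 58735 genes of an RNA-seq table, and all 10 were among the 14686 genes with a mean of at least 0.5 FPKM (fragments scaled to gene length and to library depth) that were tested. The table covers 21 libraries of MDA-MB-453, a human breast cancer cell line, with 3 libraries in each of 7 groups. The study asked whether calcium and cadmium act through the orphan nuclear receptor ESRRB, with the agonist GSK4716 and the antagonist DES (diethylstilbestrol) as tools. Control cells were labelled as untreated. The other groups received calcium (10 mM), cadmium (10 μM), GSK4716 (5 μM) or DES (10 μM) for 24 h, or DES (10 μM) for 3 h and then calcium (10 mM) or cadmium (10 μM) for 24 h. Per the labels, calcium and GSK4716 were given in medium without serum and cadmium in medium with diluted charcoal-stripped serum, and GSK4716 and DES were dissolved in ethanol. The labels give neither the medium nor the vehicle of the control group, so an effect of these and an effect of a treatment cannot be told apart. All cells are of 1 unmodified line, and nothing in the labels says that the 3 libraries of a group came from separate experiments, so p-values measure only the spread between these libraries.

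Chaperones bind unfolded or partly folded proteins and keep them from aggregating. J-domain proteins bring such clients to HSP70 and start its ATPase, nucleotide exchange factors such as BAG3 release them, and HSP90 takes over clients that include kinases and steroid receptors. The HSPD1 ring folds proteins inside mitochondria with HSPE1 as its lid, and small heat shock proteins hold clients without using ATP. When unfolded proteins build up, the factor HSF1 trimerizes, binds heat shock elements, which are alternating copies of GAA and TTC units, and raises the transcription of many chaperone genes. Heavy metals such as cadmium, which binds protein thiols, are a textbook trigger of this response.

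The promoter sequences show where such elements lie. RefSeq windows from 250 bases before to 50 bases after the annotated start (GRCh38.p14) were found for 9 of the 10 genes, with 16 windows in all, since several genes have more than 1 start. GAANNTTC or TTCNNGAA, searched on both strands, was present in the windows of 7 of the 9 genes, against 16.2% of the 27305 genes in the RefSeq table. A run of 3 alternating units (either GAA or TTC first, each unit spaced by NN, overlapping the shorter motif) was present for 4 of the 9 genes, HSP90AA1, HSP90AB1, HSPD1 and DNAJA1, against 0.608% of all genes. The response element of the estrogen-related receptors, TNAAGGTCA, matched none of the 16 windows and 0.951% of all windows. The metal response element core (TGCACNC or TGCGCNC) matched windows of 8 of the 9 genes, and 33.4% of all genes. These are matches of letters, not measured binding. The stretches below were chosen because they hold the heat shock element motif. They run 5′ to 3′ on the gene's own strand, bases inside annotated exons were left off except for HSPD1, whose element lies in an exon of another annotated transcript, and capitals mark GAANNTTC and TTCNNGAA matches. They lie at chr14:102087045-102087294 (minus strand, HSP90AA1), chr6:44247693-44247865 (plus strand, HSP90AB1), chr2:197500063-197500090 (minus strand, HSPD1), chr19:14518408-14518647 (minus strand, DNAJB1) and chr7:76302423-76302543 (plus strand, HSPB1).
HSP90AA1: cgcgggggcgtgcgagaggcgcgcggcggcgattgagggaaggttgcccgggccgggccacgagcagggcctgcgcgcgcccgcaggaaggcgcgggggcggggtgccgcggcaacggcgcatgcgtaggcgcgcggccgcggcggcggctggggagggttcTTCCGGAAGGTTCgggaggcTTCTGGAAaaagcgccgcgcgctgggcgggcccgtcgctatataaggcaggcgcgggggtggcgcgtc
HSP90AB1: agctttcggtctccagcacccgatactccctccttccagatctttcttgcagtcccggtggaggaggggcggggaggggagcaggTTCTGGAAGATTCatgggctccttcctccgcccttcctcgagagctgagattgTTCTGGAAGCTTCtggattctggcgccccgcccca
HSPD1: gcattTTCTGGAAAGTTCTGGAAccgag
DNAJB1: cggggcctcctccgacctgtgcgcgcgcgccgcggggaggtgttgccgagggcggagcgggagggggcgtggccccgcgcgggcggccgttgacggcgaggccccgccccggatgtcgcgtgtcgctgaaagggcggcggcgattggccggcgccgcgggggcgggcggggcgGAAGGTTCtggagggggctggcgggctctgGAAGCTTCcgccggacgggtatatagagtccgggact
HSPB1: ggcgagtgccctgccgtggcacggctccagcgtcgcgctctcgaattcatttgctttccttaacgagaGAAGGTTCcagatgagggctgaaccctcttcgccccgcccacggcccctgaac

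In the HSP90AA1 stretch the run of 3 units began 88 bases before the start, with a further pair of units 68 bases before it. The HSP90AB1 stretch lies before an annotated start inside the gene and held 2 runs of 3 units, 165 and 112 bases upstream. The starts used for HSP90AA1, HSPD1, DNAJB1 and HSPB1 also lie inside the deposited gene bounds. The short HSPD1 stretch is an unbroken run of alternating units. HSPD1 and HSPE1 are transcribed away from each other, and the HSPD1 start at 197499840 is 539 bases from the HSPE1 start. The same run lies 245 bases upstream of this HSPD1 start and 311 bases upstream of the HSPE1 start, outside the HSPE1 window. A further annotated HSPD1 start, at 197500274, lies nearer to the HSPE1 start, and the run lies downstream of it. DNAJB1 had pairs of units 77 and 47 bases upstream of the start, and HSPB1 had a single pair 182 bases upstream. In DNAJA1 the run of 3 units, GAACTTTCCAGAA, lay just after the start.

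The libraries held 14435925 to 28424805 fragments on genes (median 18314738). The cell line's luminal markers were expressed throughout (ERBB2 97.2 to 210 FPKM, KRT19 367 to 1315 FPKM), ESR1 did not exceed 0.123 FPKM, and the markers of leukocytes, endothelium and basal cells did not exceed 1.07 FPKM. Among neuron markers, RBFOX3 stayed at or below 0.0917 FPKM and SYP reached 2.545 FPKM (median 0.195 FPKM). Of the fibroblast markers, COL1A2 and DCN stayed at or below 0.0617 FPKM while COL1A1 ranged from 9.34 to 32.7 FPKM. Fragments from the mitochondrial genome made up 7.70 to 8.19% in the control libraries, 4.88 to 7.55% with calcium (each below every control library), 7.36 to 9.75% with cadmium, 8.20 to 8.84% with GSK4716, 3.47 to 4.96% with DES, 4.34 to 5.17% with DES and calcium, and 1.97 to 5.31% with DES and cadmium. Their part in the results was not tested. Cadmium replicate 3 stood apart in the genes described here. It was the highest of the 3 cadmium libraries for 10 of 10 genes, against 40.9% of all genes tested, and replicate 1 was the lowest for 8 of 10, against 35.9% of all genes. DES with cadmium replicate 1 also stood apart, with the fewest genes detected (16605) of the 21 libraries. The authors' library size was 0.693 times its fragments on genes, against 0.862 to 1.15 times in the others. Its FPKM values are therefore higher than scaling by total fragments would give. As bulk RNA was sequenced, a change in every cell and a change in a share of the cells cannot be told apart.

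Together the 10 genes took 0.377 to 0.464% of all FPKM in the control libraries and 1.77 to 2.24% in the DES libraries. The share was 1.64 to 1.95% with DES and calcium and 1.97 to 3.03% with DES and cadmium. Calcium alone gave 0.507 to 0.769% and GSK4716 0.334 to 0.422%. The 3 cadmium libraries ran from 0.367% through 0.600% to 2.06%, that is, from just below the control libraries to within the DES range in a single group.

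**Figure D1:**
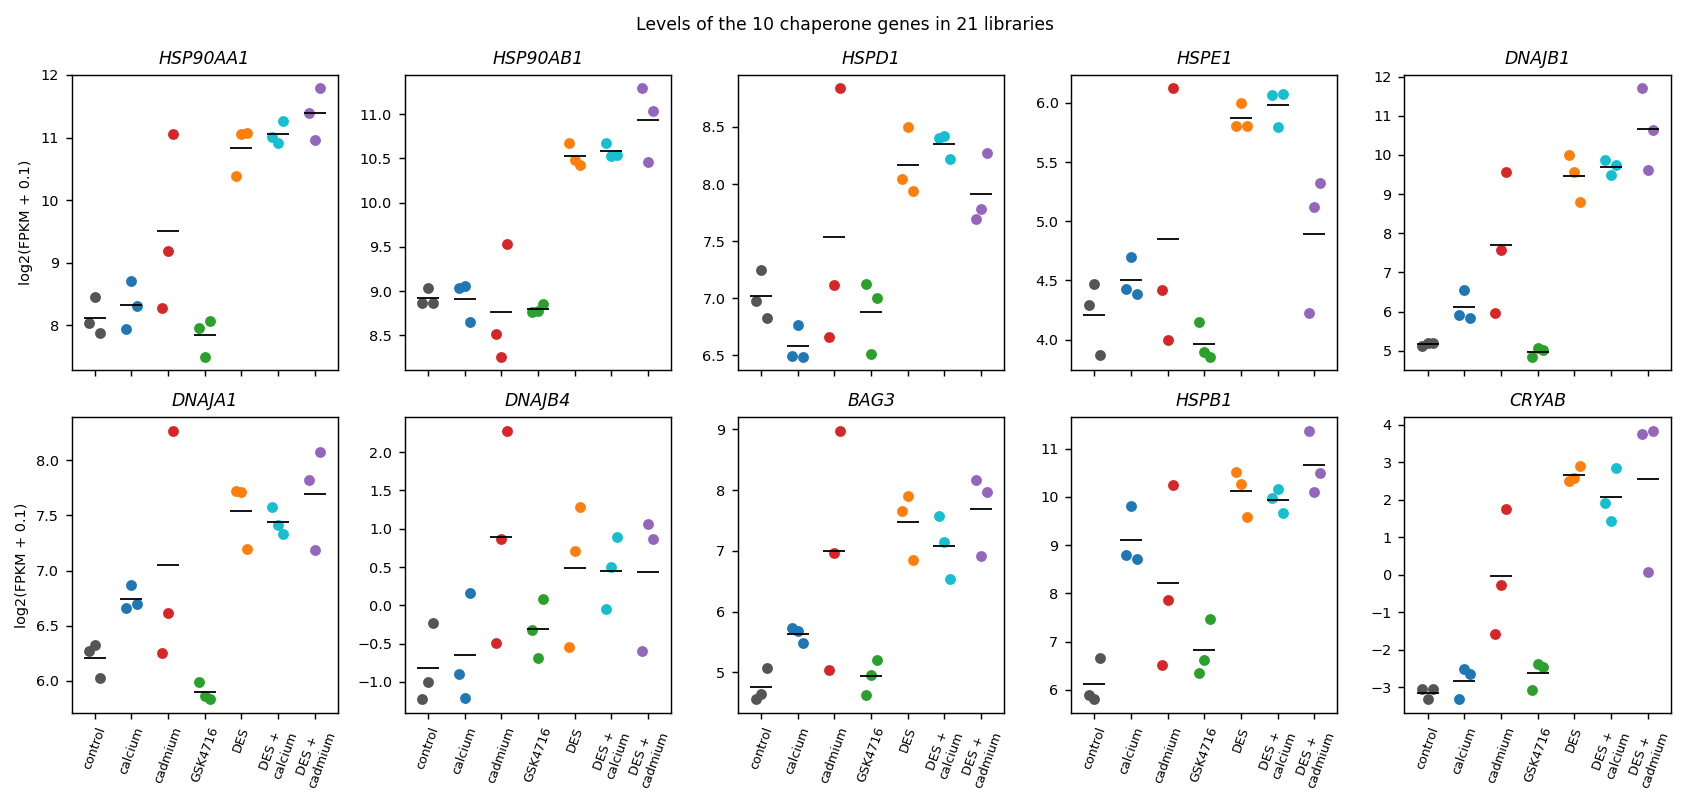
Level of each of the 10 genes as log2(FPKM + 0.1) in the 21 libraries, by group; each point is a library, the bar is the mean of 3 libraries on this scale, and the vertical axis differs between panels. With DES alone, every library lies above control for all genes but DNAJB4, whose groups overlap, HSPE1 with DES and cadmium reaches down into the control range, and the 3 cadmium libraries are spread widely.

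HSP90AA1 (ENSG00000080824, chr14:102080738-102139699, minus strand) encodes the stress-inducible HSP90 alpha. Its level was 263, 348 and 235 FPKM in control replicates 1 to 3, 247, 416 and 316 FPKM with calcium, and 248, 181 and 269 FPKM with GSK4716. It was 1335, 2119 and 2149 FPKM with DES, 2063, 1930 and 2458 FPKM with DES and calcium, and 2697, 2004 and 3547 FPKM with DES and cadmium. Coordinates here and below are those of the deposited table, on GRCh38. All 9 libraries with DES lay above all control, calcium and GSK4716 libraries. Cadmium alone gave 310, 586 and 2123 FPKM, so replicate 3 alone reached the DES range.

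HSP90AB1 (ENSG00000096384, chr6:44246166-44253888, plus strand), the constitutive HSP90 beta, had the higher FPKM of the pair in control. It stood at 468, 525 and 468 FPKM in control, 525, 535 and 401 FPKM with calcium, 434, 439 and 462 FPKM with GSK4716, and 365, 307 and 743 FPKM with cadmium. Levels with DES were 1638, 1430 and 1375 FPKM, with DES and calcium 1640, 1479 and 1491 FPKM, and with DES and cadmium 2515, 1413 and 2100 FPKM. For HSP90AB1 the 9 libraries with DES lay above the other 12. The ratio of HSP90AA1 to HSP90AB1 within a library was 0.502 to 0.664 in control and 0.411 to 0.581 with GSK4716, and 0.470, 0.779 and 0.788 with calcium. It was 0.815, 1.48 and 1.56 with DES, 1.26 to 1.65 with DES and calcium, and 1.07 to 1.69 with DES and cadmium. With cadmium alone it was 0.849, 1.91 and 2.86, above all control libraries, as were 2 of the 3 calcium libraries and all 9 libraries with DES, and the 2 highest ratios of the series were in this group. By FPKM, HSP90 alpha therefore passed HSP90 beta in 2 of the 3 cadmium libraries. In 1 of these the summed level of the 10 genes was still 0.600% of all FPKM. FPKM divides by gene length, 5248 bases for HSP90AA1 and 2980 for HSP90AB1. Control replicates 1 to 3 held 44653, 38626 and 20374 fragments of HSP90AA1 and 45046, 33026 and 23049 of HSP90AB1. Which form ranks higher in a library thus depends on these lengths.

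HSPD1 (HSP60, ENSG00000144381, chr2:197486581-197516737, minus strand) was the gene that moved least with DES among those called. Control libraries held 126, 152 and 113 FPKM, those with calcium 89.9, 109 and 89.7 FPKM, all below control, and those with GSK4716 140, 91.2 and 128 FPKM. The level was 264, 363 and 246 FPKM with DES, 339, 343 and 297 FPKM with DES and calcium, and 207, 220 and 308 FPKM with DES and cadmium. Cadmium alone gave 101, 139 and 458 FPKM, the last of which exceeded every DES library.

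HSPE1 (HSP10, ENSG00000115541, chr2:197499994-197503457, plus strand), the lid of the HSPD1 ring, was measured at 19.5, 22.1 and 14.5 FPKM in control, 21.4, 25.9 and 20.8 FPKM with calcium, 17.7, 14.8 and 14.4 FPKM with GSK4716 and 21.2, 15.9 and 69.7 FPKM with cadmium. It rose to 55.8, 63.9 and 55.8 FPKM with DES and stood at 66.7, 55.5 and 67.4 FPKM with DES and calcium. With DES and cadmium it was 18.6, 34.8 and 39.9 FPKM, so all 3 libraries lay below all DES libraries and replicate 1 lay within the control range. The ratio of HSPE1 to HSPD1 was 0.128 to 0.155 in control, 0.232 to 0.238 with calcium, 0.176 to 0.227 with DES, and 0.0899, 0.158 and 0.129 with DES and cadmium. It was 0.210, 0.114 and 0.152 with cadmium alone, 0.126, 0.162 and 0.112 with GSK4716, and 0.197, 0.162 and 0.227 with DES and calcium. HSPD1 and HSPE1 overlap on opposite strands, and the labels describe both stranded and unstranded library preparation, so fragments from the overlap cannot be assigned with certainty. On average HSPE1 had 7.91% as many fragments as HSPD1.

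**Figure D2:**
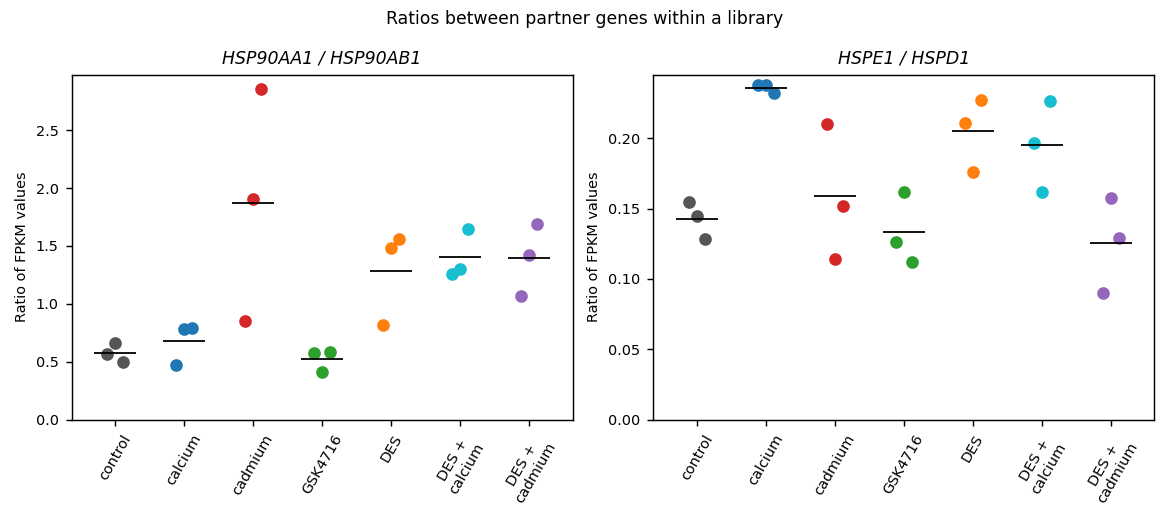
Ratio of HSP90AA1 to HSP90AB1 (left) and of HSPE1 to HSPD1 (right), from the FPKM values of the same library; points are the 21 libraries by group and bars the means of 3. The left ratio runs from 0.411 to 0.664 in control and GSK4716 libraries and reaches 2.86 in a cadmium library, and the right ratio is lowest, 0.0899, in a library with DES and cadmium.

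DNAJB1 (HSP40, ENSG00000132002, chr19:14514770-14529770, minus strand), the J-domain protein that works with stress-induced HSP70, had the tightest control group, at 34.98, 36.4 and 36.5 FPKM. It was 60.5, 94.4 and 57.4 FPKM with calcium, all above control, and 28.7, 33.4 and 32.4 FPKM with GSK4716, all below. DES gave 1019, 759 and 447 FPKM and DES with calcium 943, 712 and 862 FPKM. The widest range came with cadmium, at 62.4, 191 and 762 FPKM alone and 3354, 790 and 1602 FPKM with DES. TECR overlaps DNAJB1 on the other strand and ranged from 23.5 to 108 FPKM. On average it had 12.9% as many fragments as DNAJB1.

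DNAJA1 (ENSG00000086061, chr9:33025211-33039907, plus strand), a J-domain protein of the cytosol that serves the constitutive HSP70, was less variable. Its level was 77.1, 80.0 and 65.0 FPKM in control, 101, 116 and 103 FPKM with calcium, 63.4, 58.1 and 56.8 FPKM with GSK4716, and 76.1, 98.0 and 309 FPKM with cadmium. With DES it was 211, 210 and 147 FPKM, with DES and calcium 190, 170 and 161 FPKM, and with DES and cadmium 227, 145 and 270 FPKM. The order of means from GSK4716 to control to calcium had no overlap between neighbours.

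DNAJB4 (ENSG00000162616, chr1:77979175-78017964, plus strand), a cytosolic J-domain protein better known from muscle, was rare. It held 0.327, 0.400 and 0.752 FPKM in control, 0.438, 0.333 and 1.02 FPKM with calcium, 0.702, 0.521 and 0.954 FPKM with GSK4716 and 0.610, 1.73 and 4.76 FPKM with cadmium. DES gave 0.584, 1.54 and 2.33 FPKM, DES with calcium 0.863, 1.32 and 1.75 FPKM and DES with cadmium 0.559, 1.98 and 1.72 FPKM. Neighbouring groups in the order of its means overlapped throughout, and a library held between 22 and 296 fragments of it.

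BAG3 (ENSG00000151929, chr10:119651370-119677819, plus strand) releases clients from HSP70 and links it to small heat shock proteins and to autophagy. It was measured at 23.4, 24.9 and 33.4 FPKM in control, 52.7, 51.1 and 44.5 FPKM with calcium, and 24.7, 31.02 and 36.9 FPKM with GSK4716. The level was 201, 239 and 115 FPKM with DES, 190, 142 and 92.6 FPKM with DES and calcium, and 286, 121 and 251 FPKM with DES and cadmium. Calcium libraries lay above control and below every DES library. Cadmium alone gave 33.0, 125 and 504 FPKM, from within the control range to the highest BAG3 level of the series.

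HSPB1 (HSP27, ENSG00000106211, chr7:76302544-76304295, plus strand), the main small heat shock protein of epithelial cells, was, of the 10 genes, the one most raised by calcium. Control libraries held 59.5, 55.7 and 100.3 FPKM and calcium libraries 444, 893 and 420 FPKM. GSK4716 gave 81.9, 98.7 and 176 FPKM and cadmium 91.5, 234 and 1221 FPKM. It was 1473, 1226 and 766 FPKM with DES, 1012, 1145 and 809 FPKM with DES and calcium, and 2659, 1102 and 1440 FPKM with DES and cadmium. The highest calcium library lay within the ranges of DES and of DES with calcium, while no control library came near them.

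CRYAB (alpha B-crystallin, ENSG00000109846, chr11:111908565-111923722, minus strand), a small heat shock protein abundant in lens and muscle, was close to absent without DES or cadmium. The control libraries held 2, 0 and 1 fragments and the calcium libraries 0, 4 and 4. With DES there were 382, 338 and 371 fragments (5.57, 5.95 and 7.38 FPKM), and with DES and calcium 182, 172 and 330 (3.69, 2.62 and 7.06 FPKM). Cadmium alone gave 13, 45 and 164 fragments (0.236, 0.729 and 3.29 FPKM), each above every control library. DES with cadmium gave 654, 40 and 788 fragments (13.4, 0.951 and 14.3 FPKM), so replicate 2 was far below the other 2. CRYAB overlaps HSPB2 and C11orf52 on the other strand, which together held few fragments (0.600% and 2.31% of its own).

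Few fragments were counted on pseudogenes, at most 0.750% as many as on the parent gene, for HSPD1P1. These counts do not show how fragments matching both a gene and its pseudogene were treated.

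The comparison with control asked how each treatment alone moved these genes. Differences are on the log2(FPKM + 0.1) scale, tested with limma over all 14686 genes and called at a Benjamini-Hochberg adjusted p under 0.05. DES raised 9 of the 10 genes, against 16.7% of all genes tested that were called higher. All 3 DES libraries lay above all 3 control libraries for the same 9 genes, against 25.9% of all genes. The 10 genes had a median difference of 2.18, and all genes tested had a median of 0.05. DNAJB1 rose most of the well-expressed genes, by 4.28 (SE 0.30, adjusted p = 0.000408), a 19.5-fold change. HSPB1 rose by 4.01 (SE 0.34, adjusted p = 0.000753), HSP90AA1 by 2.71 (SE 0.30, adjusted p = 0.00189) and BAG3 by 2.71 (SE 0.30, adjusted p = 0.00172). HSPE1 rose by 1.66, HSP90AB1 by 1.60, DNAJA1 by 1.34 and HSPD1 by 1.15, with adjusted p-values from 0.00196 to 0.0107. CRYAB rose by 5.81 (adjusted p = 0.000168), a value that depends on the constant added: it was 2.84 with a constant of 1. CRYAB averaged 0.0134 FPKM in control and passed the filter only through the groups where it is high, so it had to differ and its call is a description. DNAJB4 averaged 0.493 FPKM in control. All 8 genes with a control mean of at least 0.5 FPKM were called. From the fragments, the ratio of CRYAB in DES to control was 439, with an exact 95% interval of 150 to 2134 that covers counting error only, as the control libraries held 3 fragments in all. DNAJB4, at 1.30 (interval 0.03 to 2.57, adjusted p = 0.108), was not called, and was called only when DES replicate 1 was left out (1.82, adjusted p = 0.0205).

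**Figure D3:**
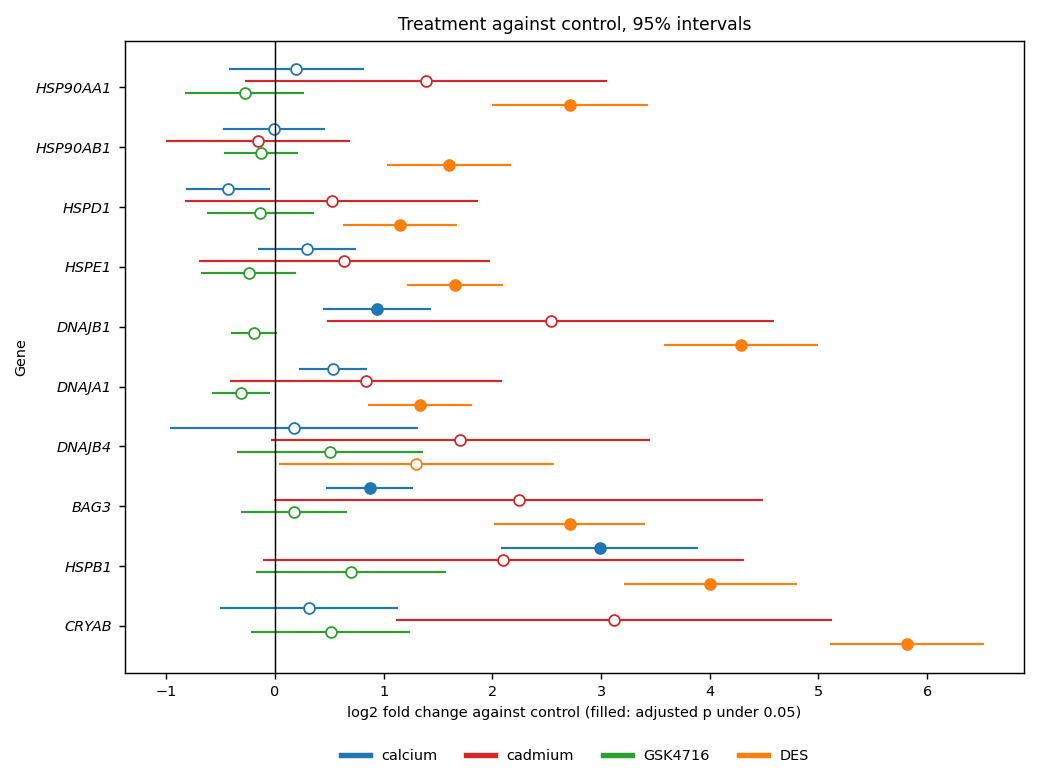
Difference from control on the log2 scale for calcium, cadmium, GSK4716 and DES; points are limma estimates from 3 against 3 libraries, lines their 95% intervals, and filled points have an adjusted p under 0.05. DES is filled for 9 genes and calcium for DNAJB1, BAG3 and HSPB1, while the cadmium intervals are the widest.

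Calcium raised 3 of the 10 genes, against 4.60% of all genes tested called higher, and lowered none. HSPB1 rose by 2.99 (SE 0.37, interval 2.08 to 3.90, adjusted p = 0.0140), DNAJB1 by 0.94 (SE 0.20, adjusted p = 0.0494) and BAG3 by 0.87 (SE 0.16, adjusted p = 0.0357). DNAJA1, with a difference of 0.53 (adjusted p = 0.0653), was not called, though its libraries also lay above control. In all, 4 genes lay above control in all libraries, against 16.0% of all genes, and 1, HSPD1, lay below (difference -0.43, adjusted p = 0.167), against 13.6%. The HSP90 genes, HSPE1, DNAJB4 and CRYAB gave differences between -0.01 and 0.32. DNAJB1 was not called with median-ratio scaling (adjusted p = 0.0514) or with scaling by total fragments (adjusted p = 0.0632). The median of the 10 genes was 0.30, and that of all genes -0.01. These calls rested on few libraries: without control replicate 1 or control replicate 2 none of the 3 was called, in fits where the calls over all genes fell from 1046 to 7 and 46. The differences were then 2.88 and 2.83 for HSPB1, 0.92 and 0.95 for DNAJB1, and 0.77 and 0.81 for BAG3. Without any single calcium library HSPB1 alone was called, at 2.64 to 3.18.

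With cadmium, no gene of the 10 was called by limma, against 0.150% of all genes tested, and limma-voom on the recovered fragments called none either. At an unadjusted p under 0.05 there were 2 of 10, DNAJB1 and CRYAB, against 25.9% of all genes. The differences were nonetheless large and 9 of 10 were positive, where 52.87% of all genes were. The median was 1.55 against 0.04 for all genes. The largest were CRYAB 3.12 (interval 1.11 to 5.12, adjusted p = 0.102), DNAJB1 2.54 (0.48 to 4.59, adjusted p = 0.139), BAG3 2.24 (-0.01 to 4.49), HSPB1 2.10 (-0.11 to 4.31), DNAJB4 1.71 (-0.04 to 3.45) and HSP90AA1 1.39 (-0.28 to 3.05). HSP90AB1 gave -0.16 (-1.01 to 0.69). The CRYAB value depends on the constant added, since control held 3 fragments in all, and from the fragments its ratio was 94.2 (exact 95% interval 31.8 to 460). This interval covers counting error only, not the spread between the cadmium libraries, which held 13, 45 and 164 fragments. CRYAB is below the filter in control and is given as a description. DNAJB1 and CRYAB were also the 2 genes whose cadmium libraries all lay above control, against 17.7% of all genes. The spread came from cadmium replicates 3 and 1. BAG3 was 15.3 times, CRYAB 13.96 times, HSPB1 13.3 times and DNAJB1 12.2 times as high in replicate 3 as in replicate 1, and the other 6 genes between 2.03 times (HSP90AB1) and 7.80 times (DNAJB4), where the median over all genes tested was 1.01. MT2A, a metallothionein that cells induce to bind cadmium, was 2001, 2288 and 4088 FPKM in the 3 cadmium libraries and 24.1 to 92.7 FPKM in control. HMOX1, the stress-induced heme oxygenase, was 196, 816.5 and 2453 FPKM with cadmium and 11.6, 5.196 and 349 FPKM in control. Without cadmium replicate 3 the differences were 1.60 for DNAJB1, 1.25 for BAG3, 1.08 for HSPB1 and 2.22 for CRYAB, with none called. Without cadmium replicate 1, DNAJB1 (3.41, adjusted p = 0.0358), BAG3 (3.218, adjusted p = 0.0416) and CRYAB (3.89, adjusted p = 0.0351) were called (for CRYAB a description, as it passed the filter only through other groups than control), in a fit that called 1605 genes in all, 798 of them higher, against 22 with all libraries.

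With GSK4716 none of the 10 genes was called by limma, nor was any gene tested (0%), and none of the 10 was called by limma-voom, which called 79 genes. At an unadjusted p under 0.05 there was 1 of 10, DNAJA1 (difference -0.31, interval -0.58 to -0.04, adjusted p = 0.257), against 16.4% of all genes. HSP90AB1, DNAJB1 and DNAJA1 had all 3 GSK4716 libraries below control, against 11.5% of all genes. The intervals, such as -0.47 to 0.21 for HSP90AB1 and -0.40 to 0.02 for DNAJB1, leave out the difference seen with DES for all genes but DNAJB4 (-0.35 to 1.36, with 1.30 for DES), and the largest difference was that of HSPB1, 0.70 (-0.17 to 1.57).

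The groups that received DES before a metal asked whether the antagonist altered the effect of the metal. DES alone was given for 24 h, and DES before a metal for 3 h. The treatment labels do not say whether it stayed on with the metal. Against DES alone and in the interactions, the metal and this difference in schedule cannot be told apart. Against DES alone, DES with calcium called none of the 10 genes, by limma (0.136% of all genes tested) or by limma-voom, and none had an unadjusted p under 0.05 (13.2% of all genes). The differences ran from -0.60 for CRYAB (interval -1.50 to 0.30) to 0.25 for DNAJB1 (-0.62 to 1.11). HSPB1, which calcium raised in the absence of DES, gave -0.19 (-1.02 to 0.65). Against calcium alone, DES with calcium raised 8 of the 10 genes, against 18.5% of all genes called higher, and for the same 8 all libraries with DES lay above all libraries without, against 25.7% of all genes. These were DNAJB1 (3.59, SE 0.24), HSP90AA1 (2.74, SE 0.26), HSPD1 (1.77, SE 0.15), HSP90AB1 (1.67, SE 0.22), HSPE1 (1.47, SE 0.15), BAG3 (1.46, SE 0.26), DNAJA1 (0.70, SE 0.14) and CRYAB (4.90, SE 0.48). From the fragments the CRYAB ratio was 99.8 (exact 95% interval 50.4 to 232, which again covers counting error only). CRYAB averaged 0.0448 FPKM with calcium and again passed the filter only through other groups, and of the 9 genes with a calcium mean of at least 0.5 FPKM, 7 were called. HSPB1 (0.83, interval 0.01 to 1.65, adjusted p = 0.104) and DNAJB4 (1.09, -0.04 to 2.23, adjusted p = 0.118) were not called, though limma-voom called HSPB1 (adjusted p = 0.0334).

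**Figure D4:**
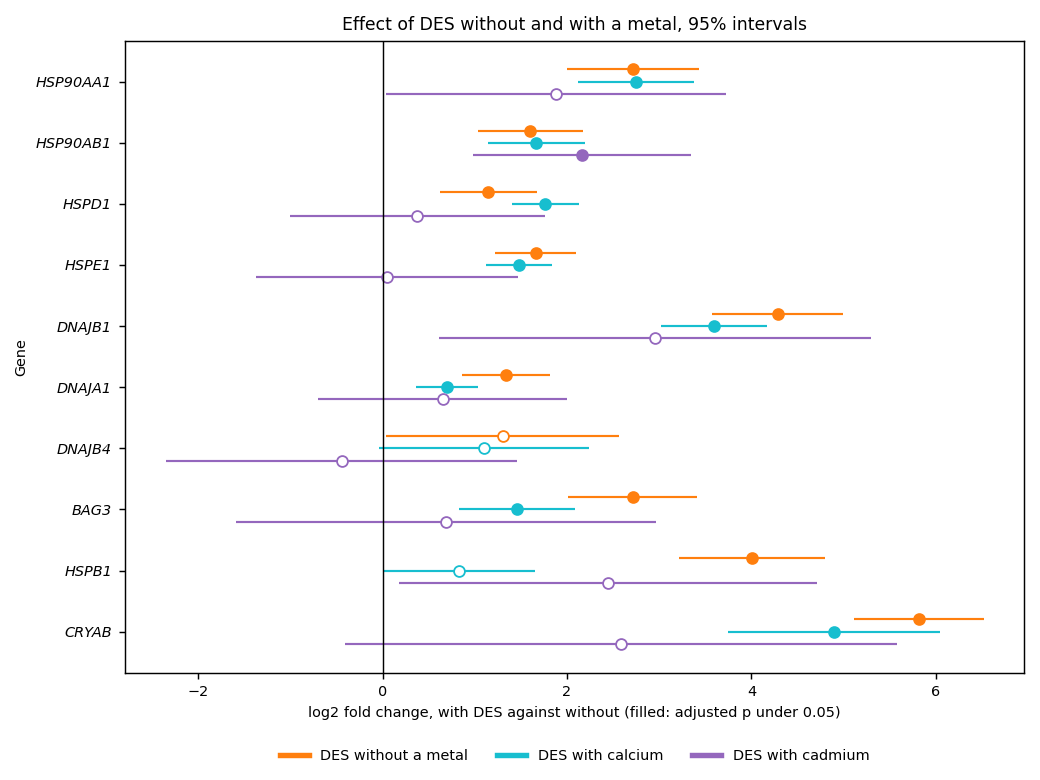
Difference between cells with and without DES on the log2 scale, in the absence of a metal, with calcium and with cadmium; points are limma estimates from 3 against 3 libraries, lines 95% intervals, and filled points have an adjusted p under 0.05. For HSPB1 the difference is 4.01 without a metal and 0.83 with calcium, and the intervals with cadmium are the widest.

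The interaction, that is, the calcium effect with DES minus the calcium effect without, was tested in 1 fit of the 4 groups. It called 1 of the 10 genes, lower, against 2.38% of all genes called lower. That gene was HSPB1, at -3.17 (SE 0.50, interval -4.26 to -2.09, adjusted p = 0.00971). The call was lost with no filter on low values (adjusted p = 0.0529) and with all 7 groups in one fit (adjusted p = 0.0934). BAG3 (-1.25, adjusted p = 0.127), DNAJA1 (-0.64, adjusted p = 0.173) and HSPD1 (0.62, adjusted p = 0.220) had unadjusted p-values under 0.05 and were not called. The share of all genes under that unadjusted threshold was not counted for this interaction. The interaction was 0.03 for HSP90AA1 (interval -0.81 to 0.88) and 0.06 for HSP90AB1 (-0.54 to 0.67).

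Against DES alone, DES with cadmium called none of the 10 genes by limma (0.266% of all genes tested) or by limma-voom. At an unadjusted p under 0.05 there was 1 of 10, HSPE1, against 10.4% of all genes. HSPE1 differed by -0.98 (SE 0.32, interval -1.74 to -0.22, adjusted p = 0.348) and was the gene whose 3 libraries all lay below DES, which held for 10.9% of all genes. Without DES with cadmium replicate 1 the difference was -0.65 (adjusted p = 0.309). Its ring partner HSPD1 gave -0.25 (-0.96 to 0.46). DNAJB1 had the largest difference, 1.21 (-0.33 to 2.74), which fell to 0.68 without DES with cadmium replicate 1. MT2A was 10180 FPKM in that library, and 1840 and 5493 FPKM in the others. Against cadmium alone, DES with cadmium raised 1 of the 10 genes, HSP90AB1 (2.16, SE 0.50, adjusted p = 0.0449), against 4.76% of all genes called higher. HSP90AB1 and DNAJB1 (2.95, interval 0.61 to 5.30, adjusted p = 0.0967) had all libraries with DES above all without, against 18.6% of all genes. The call of HSP90AB1 was lost when any 1 of the 6 libraries was left out, with differences of 1.91 to 2.55, while the calls over all genes went from 1453 to 0 in 4 of these fits and to 1052 and 676 in the others. The interaction of cadmium and DES called none of the 10 genes by limma (1.18% of all genes tested) or limma-voom. At an unadjusted p under 0.05 there were 2, HSPE1 (-1.62, adjusted p = 0.226) and CRYAB (-3.23, adjusted p = 0.240), against 18.5% of all genes. The CRYAB value rests on a control group with 3 fragments in all and on the constant added, and is a description. The interaction was negative for 9 of the 10 genes, and 45.55% of all genes had a positive one. The median was -1.45 against -0.09 for all genes. All 10 genes were highest in replicate 3 among the cadmium libraries, so their signs are not separate observations. The intervals were wide, from -6.23 to -0.22 for CRYAB and from -2.62 to 0.95 for HSP90AA1.

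Other chaperone genes were read from lists of 85 genes that include HSP70 proteins, HSP90 cochaperones, J-domain proteins, exchange factors and the cytosolic chaperonin TRiC, of which 78 were tested. With DES, 27 of the 78 rose, against 16.7% of all genes, 3 fell and 48 were not called, and the median difference was 0.56 against 0.05 for all genes. HSPA6 (HSP70B′), a strictly inducible HSP70, rose by 11.57 on the log2(FPKM + 0.1) scale, from 0.128 to 0.260 FPKM in control to 644 to 1262 FPKM. It averaged 0.212 FPKM in control and passed the filter only through the groups where it is high, so its calls here and below are a description. The inducible HSPA1B rose by 5.32, from 13.5 to 18.2 FPKM to 580 to 761 FPKM, and HSPA1A by 4.72. HSPH1, the HSP110 exchange factor, rose by 2.69, the constitutive HSPA8 by 1.24 and HSF1 itself by 0.60 (adjusted p = 0.0310). The genes that fell were the synaptic vesicle J-domain protein DNAJC5 (-1.17), DNAJB12 of the endoplasmic reticulum (-0.74) and BAG5 (-0.65). HSPA1A and HSPA1B are nearly identical copies, and fragments could be split between them.

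By list, DES raised 6 of 14 HSP70 and HSP110 genes, 8 of 17 HSP90 cochaperones (FKBP4 by 1.60 and CHORDC1 by 2.02) and 5 of 19 other J-domain proteins, with 2 of these falling. It raised 4 of 8 exchange factors with 1 falling, 2 of 3 heat shock factors, 1 of 8 TRiC subunits and 1 of 6 mitochondrial proteases and chaperones. Over all 14686 genes 16.7% were called higher and 1893 were called lower, and the counts for TRiC and the mitochondrial genes lie near the first share. Neither of the HSP90 proteins of other organelles was called: HSP90B1 gave 0.71 and TRAP1 -0.37. The DES groups with a metal differed from DES alone in none of the 78 by limma or limma-voom, with 5 for calcium (13.2% of all genes) and 10 for cadmium (10.4% of all genes) at an unadjusted p under 0.05. Against calcium alone, DES with calcium raised 47 and lowered 3 of the 78, where 18.5% of all genes were called higher and 2426 of the 14686 lower, including 8 of 8 TRiC subunits, which differed by 0.54 to 1.22. Against cadmium alone, DES with cadmium raised 5 of the 78, near the 4.76% of all genes called higher (699 genes, or 359 with scaling by total fragments, with 754 and 1043 lower). HSPA8 (2.39) and HSF1 (1.05) were among them.

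**Figure D5:**
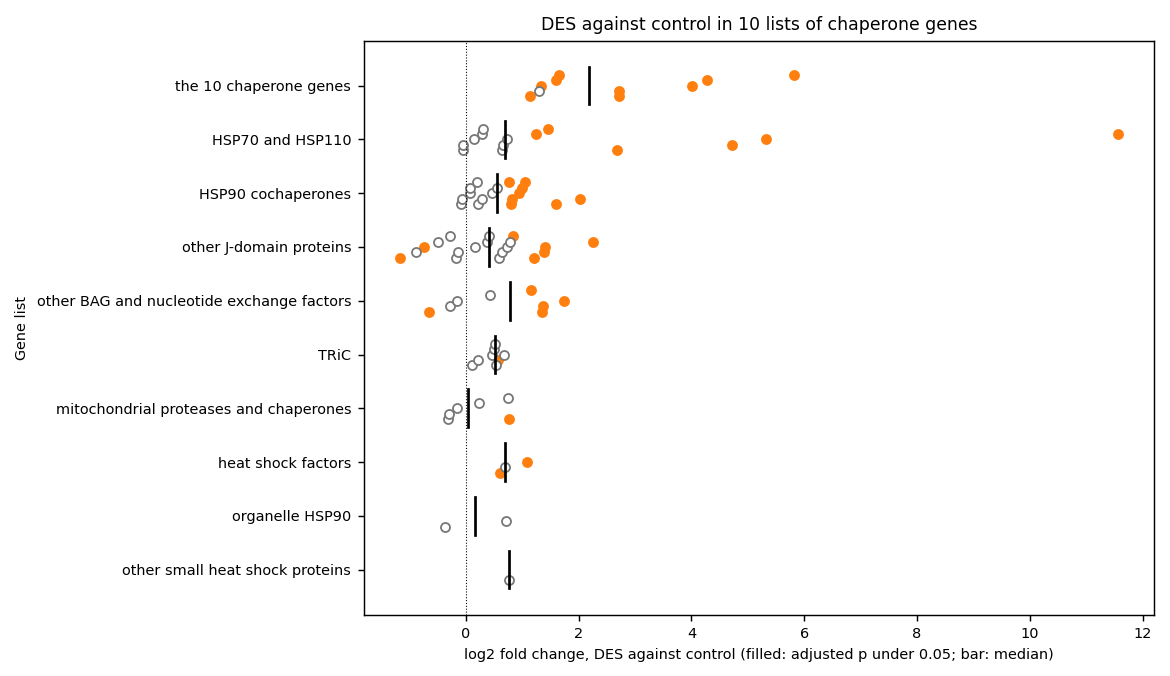
Difference between DES and control on the log2 scale for the 10 chaperone genes and 9 further lists of chaperone genes; each point is a gene, filled where the adjusted p is under 0.05, and the bar is the median of the list. The median of the 10 genes is 2.18, those of the other lists lie between 0.04 and 0.79, and HSPA6 lies farthest right at 11.57.

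Calcium raised 4 of the 78, a share near the 4.60% of all genes called higher, and lowered 1, where 371 of the 14686 genes were called lower. The risers were HSPA6 (4.71), HSPA1B (2.33), HSPA1A (1.94) and the J-domain protein DNAJB2 (0.90), and HSPB11 fell by 0.75 on the log2 scale. HSPA8 (-0.09), HSPH1 (0.44) and HSF1 (0.16) were not called. The interaction of calcium and DES called 4 of the 78 lower, where 2.38% of all genes were: HSPA6 (-4.94), HSPA1B (-2.45), HSPA1A (-2.06) and DNAJB2 (-1.40). That of cadmium and DES called 1 of the 78, HSPA6 (-8.09), where 1.18% of all genes were called, and limma-voom called none. With cadmium none of the 78 was called by limma and 1 by limma-voom, with 20 at an unadjusted p under 0.05, about the share of all genes (25.9%). HSPA6 had the largest difference, 9.55 (adjusted p = 0.0507), at 42.4, 300.3 and 947 FPKM in cadmium replicates 1, 2 and 3. HSPA1A differed by 3.84 (adjusted p = 0.0996), HSPA1B by 3.78 (adjusted p = 0.0993) and HSPH1 by 2.33 (adjusted p = 0.189). HSPA1A was 111, 559 and 2130 FPKM in cadmium replicates 1, 2 and 3, with replicate 3 the highest as for the 10 genes. With GSK4716 none of the 78 was called by limma and 2 by limma-voom, with 26 at an unadjusted p under 0.05 (16.4% of all genes), and the median was -0.10.

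The levels of the 10 genes ran together over the 21 libraries, with Pearson correlations of log2(FPKM + 0.1) between 0.334 for HSP90AB1 and DNAJB4 and 0.968 for HSP90AA1 and DNAJB1. The libraries share the DES groups and the spread of the cadmium group, so these values are a description. The gene with the pattern most like DNAJB1 was HSPA1B (r = 0.979). It was SERPINH1, a collagen chaperone, for HSP90AB1 (0.972), PPP1R15A, a stress-induced phosphatase subunit, for HSPB1 (0.972), NGFR for CRYAB (0.973) and the J-domain gene DNAJA4 for BAG3 (0.963). CACYBP was the most like both HSP90AA1 (0.968) and HSPD1 (0.946), DNAJB6 the most like DNAJA1 (0.951), the TRiC pseudogene CCT6P1 the most like HSPE1 (0.924) and ZNF706 the most like DNAJB4 (0.879).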

How the data were processed

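RNA-seq of 21 MDA-MB-453 libraries was used. The authors deposited FPKM per gene; alignment to GRCh38.p14 is stated, and the submitters' processing notes name HISAT2 2.0.5 and featureCounts 1.5.0-p3. FPKM times gene length gave whole fragments (within 0.1) for 100% of values. The authors' library sizes were 0.693 to 1.15 times the fragments on genes. Genes with a mean of at least 0.5 FPKM (14686) were tested with limma 3.58.1 (R 4.3.3, trend) on log2(FPKM + 0.1), two-sided, using only the libraries compared, with Benjamini-Hochberg adjustment and a threshold of 0.05. The steps were tested on simulated data. Tables and figures used Python 3.11.15, pandas 2.3.3, numpy 2.4.6 and matplotlib 3.10.9. On recovered fragments, limma-voom called 4770 genes for DES and 1582 for calcium (limma: 4340 and 1046). Equal replicate numbers paired libraries, by correlated deviations over 0.1 in every pair, only for DES with calcium against DES (0.103 to 0.280) and DES with cadmium against DES (0.121 to 0.472). No library copied another. Named were the 10 genes, HSF1, HSPA1A, HSPA1B, HSPA8, HSPH1, up to 3 called rises and falls of the wider list per comparison, and each gene's nearest correlate; MT2A, HMOX1, FKBP4, CHORDC1, TRAP1, HSP90B1 and, for cadmium, HSPA6 were chosen after their values were seen. The genes and lists were chosen with earlier results of these data known. Promoter windows are from RefSeq (GRCh38.p14) and exons from GENCODE v44.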

Additional observations from a re-analysis of the deposited data

Results flagged for a closer look

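HSPB1 is listed here because the effect of calcium differed with and without DES by the interaction test. Calcium raised it by 2.99 on the log2 scale without DES and gave -0.19 with DES, a difference of -3.17 (limma, adjusted p = 0.00971). The call was lost with no filter on low values (adjusted p = 0.0529) and with all 7 groups in one fit (adjusted p = 0.0934). The calcium groups were treated without serum, and the medium of the DES and control groups is not stated in the labels, so serum and calcium cannot be told apart. DES alone was given for 24 h and DES before calcium for 3 h, so the schedule of DES cannot be told apart from calcium either.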

How the results depend on the processing

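In the calcium comparison 3 genes were called (1046 of all genes), and 0 with no filter on low values (60 of 45127 genes), 1 with all 7 groups in one fit (743), 1 with a fold limit of 2 (1 on the log2 scale), and 0 to 2 with each library left out (7 to 758). With cadmium 0 were called (22), 3 with all 7 groups in one fit (1026), and 0 to 3 with each library left out (1 to 1605). With DES 9 were called (4340), 6 with no filter (2106) and 8 to 10 with each library left out (1930 to 5078), and HSPD1 was lost without control replicate 1 (adjusted p = 0.0548). DES with calcium against calcium gave 8 (5148), or 5 with no filter (2320), 6 with all 7 groups in one fit (5447), 7 with the fold limit (3506), 9 with the replicate block (5149), and 7 to 9 with each library left out (3263 to 4260). DES with cadmium against cadmium gave 1 (1453), or 0 with no filter (132), 5 with all 7 groups in one fit (5459), and 0 to 0 with each library left out (0 to 1052). The interaction of calcium and DES gave 1 (533), or 0 with no filter (208) and 0 with all 7 groups in one fit (180), and 1 throughout with each library left out (181 to 830). The numbers in parentheses are the calls over all genes in the same fit. The cause of these changes was not tested.

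With the replicate number as a block, calcium against control called 0 of the 10 genes (260 of all genes) and DES with cadmium against cadmium called 0 (0), where the numbers did not pair the libraries. Where they did pair, the block changed no call of the 10 genes: DES with calcium against DES and DES with cadmium against DES called 0 in either fit.

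No called difference of the 10 genes changed direction under the settings run. Of 720 values with a library left out, 656 kept their direction and side of the threshold and 38 uncalled ones changed direction. In calcium against control these ran from -0.082 to 0.12 for HSP90AB1 and -0.23 to 0.46 for DNAJB4. In cadmium against control these ran from -0.54 to 0.099 for HSP90AB1, -0.13 to 0.96 for HSPD1 and -0.0040 to 1.06 for HSPE1. In GSK4716 against control these ran from -0.26 to 0.048 for HSPD1. In DES with calcium against DES these ran from -0.078 to 0.52 for DNAJB1, -0.55 to 0.36 for DNAJB4 and -0.46 to 0.015 for HSPB1. In DES with cadmium against DES these ran from -0.040 to 0.41 for DNAJA1, -0.56 to 0.48 for DNAJB4, -0.095 to 0.60 for BAG3 and -0.75 to 1.13 for CRYAB. In DES with cadmium against cadmium these ran from -0.065 to 1.02 for HSPD1, -0.38 to 0.68 for HSPE1, -1.14 to 0.25 for DNAJB4 and -0.29 to 1.67 for BAG3. In the interaction of calcium and DES these ran from -0.19 to 0.22 for HSP90AA1, -0.069 to 0.14 for HSP90AB1 and -0.72 to 0.20 for DNAJB4. Of 790 values under other settings, 751 kept both and 8 uncalled ones changed direction. Scaling by total fragments moved the median of all genes by -0.11 for calcium, -0.17 for DES and -0.31 for DES with cadmium against cadmium. With it, the genes called higher and lower went from 675 and 371 to 545 and 560 for calcium, from 2447 and 1893 to 1861 and 2538 for DES, and from 2722 and 2426 to 2110 and 3191 for DES with calcium against calcium. Direction changed with scaling by total fragments on genes for HSP90AB1 (-0.081), HSPE1 (-0.029) in DES with calcium against DES and DNAJA1 (-0.069), BAG3 (-0.0047) in DES with cadmium against DES and HSPE1 (-0.29) in DES with cadmium against cadmium. Direction changed with limma-voom on recovered fragments for DNAJB4 (0.049) in DES with calcium against DES and DNAJB4 (0.0027) in DES with cadmium against DES. Direction changed with a constant of 1 for CRYAB (0.056) in DES with cadmium against DES. CRYAB and DNAJB4 had the fewest fragments, so their values are the least precise.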
